A study of Parasteatoda tepidariorum with 75 samples.

Results

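The genes described here are those for mRNA deadenylation and decay in embryos of the house spider Parasteatoda tepidariorum. They were chosen by words in the deposited gene descriptions alone (CCR4-NOT, decapping, exosome complex, polyadenylate-binding, poly(A)-specific, PAN2, 5'-3' exoribonuclease, smaug, cytoplasmic polyadenylation or regulator of nonsense transcripts), and the rule itself uses no measured value. The words found 47 of 27990 aug3 gene models, which match 42 reference genes, and 5 reference genes are each split over 2 models. By description, 10 models were CCR4-NOT subunits, 8 RNA exosome subunits, 7 poly(A)-binding proteins or their partners, 6 decapping factors, 5 factors of nonsense-mediated decay, 4 translational repressors, 4 models of PAN2, PAN3 or PARN, and 3 models of 5'-3' exoribonucleases. Each library held poly(A) RNA of pooled sibling embryos of 1 female, sequenced by strand. In parental RNA interference (pRNAi) the female was injected with dsRNA against Pt-hh (hedgehog), Pt-ptc (patched), Pt-msx1 (a homeobox gene) or gfp, a sequence the spider lacks, and her later egg sacs were collected. Her untreated egg sac was laid 1 to 3 days before the first injection, and the pRNAi egg sacs 13 to 24 days after it. In the first set of 8 females, 2 received Pt-hh, 3 Pt-ptc and 3 gfp dsRNA, and the stages analysed were early stage 3 and, after it, late stage 5. Late stage 7 samples of gfp females 1 and 2 were not analysed here. In the second set of 5 females, 3 received Pt-msx1 and 2 gfp dsRNA (gfp females 4 and 5), and the stages were late stage 5 and then early stage 6. The comparisons ask how the decay genes changed between stages and whether they responded to altered Hedgehog signaling, the pathway in which Pt-hh is the ligand and Pt-ptc its receptor.

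Most mRNAs are degraded from their poly(A) tail inward. The CCR4-NOT complex and the PAN2-PAN3 complex shorten the tail, which poly(A)-binding proteins cover. The deadenylated mRNA is then decapped and degraded by XRN1 from its 5' end or degraded by the exosome from its 3' end. In animal embryos these enzymes clear maternal mRNAs while the zygotic genome becomes active. In Drosophila, Smaug recruits CCR4-NOT to maternal mRNAs for this purpose.

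Values are CPM, counts scaled by TMM to a common library size, and fold changes are from edgeR's quasi-likelihood test with the female as a block. A model was called at a Benjamini-Hochberg adjusted p below 0.01. Libraries held 5961730 to 16400327 counted reads, with a median of 9854679. The share of reads in the 10 most counted models was 10.9 to 24% for Pt-hh females (12 libraries) and lower elsewhere, so the stage result is also given without those females. The libraries labelled gfp pRNAi, stage 6, female 5 and Pt-msx1 pRNAi, stage 6, female 1 hold the same count for every one of the 27990 models, and which sample the counts belong to is unknown. As a check of the labels, Pt-hh (aug3.g4322) had 2.30 to 3.32 CPM in the 4 Pt-hh pRNAi libraries at late stage 5, against 33.6 and 70.8 CPM in the 2 untreated ones. Pt-ptc (aug3.g14374) had 41.7 to 75.4 CPM in the 6 Pt-ptc pRNAi libraries at early stage 3, against 72.5 to 165.6 CPM in 3 untreated ones, lower in 3 of 3 females but not called (log2 fold change -0.91, SE 0.16, adjusted p = 0.0227). At late stage 5 it was not lower (501.8 to 704.1 CPM, against 409.2 to 554.1 CPM), while in the same libraries Pt-msx1 (aug3.g15189) fell to 1.07 to 2.71 CPM, against 100.4 to 146.9 CPM untreated, and Pt-opa (aug3.g12202) rose to 416.9 to 561.5 CPM, against 213.1 to 249.7 CPM untreated. Pt-msx1 (aug3.g15189) was not lower in those labelled Pt-msx1 pRNAi at that stage (83.0 to 117.2 CPM, against 78.7 to 133.2 CPM in untreated libraries, 3 each). Of 13 vitellogenin and hemocyanin models, markers of maternal tissue, 1 vitellogenin-like model (aug3.g18714) had 26.2 to 58.2 CPM at late stage 5, against 0.32 to 0.93 CPM at early stage 3 in untreated egg sacs. The other 12 summed to 2.03 to 10.4 CPM at late stage 5, against 13.4 to 28.55 CPM at early stage 3, so the list did not move one way, and none of the 13 was at 0 in every library of either stage. Their part in the stage differences was not tested.

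Between early stage 3 and late stage 5 of untreated embryos, the decay genes moved in both directions. All 4 models of the PAN2-PAN3 complex and PARN fell, as did CPEB1-B, Smaug and the CCR4 nuclease of the CCR4-NOT complex. Of the 8 exosome subunits 6 rose and none fell, and 4 of 6 tested models of the poly(A)-binding group rose. In all, 15 of 46 tested members (32.6%) were called higher at late stage 5, where 31.9% of all 14721 tested models were, and 13 (28.3%) were called lower, where 33.9% of all were. These shares lie near the background, so the members as a whole changed about as often as other genes. Their median log2 fold change was -0.18, beside -0.07 over all models. The 2 stages did not overlap in 15 members (32.6%), where they did not in 38.2% of all models. Without the Pt-hh females 15 members were called higher and 12 lower, where 30.2% and 32% of all models were. Of the 28 calls 27 remained, the exception being a model of PARN (aug3.g4374). The stage plot shows the members with their intervals.

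**Figure D1:**
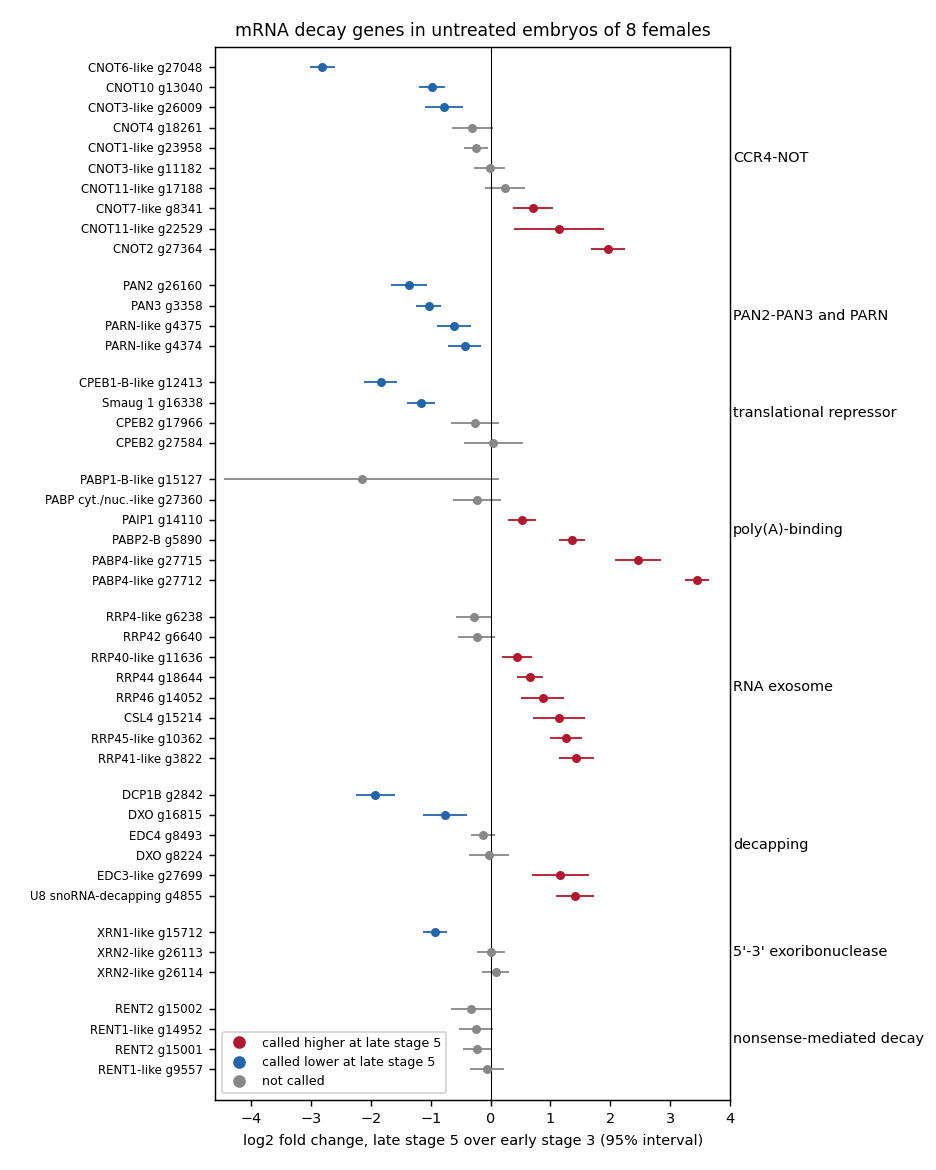
Log2 fold change of 45 of the 46 tested members at late stage 5 over early stage 3 in untreated embryos of 8 females, with 95% intervals, ordered by role. The 15 members called higher are red, 12 of those called lower are blue and the others are gray; the exosome and poly(A)-binding groups hold red points, and the PAN2-PAN3 and PARN group holds blue points alone.

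The largest fall among the members was in the CCR4-NOT subunit 6-like model (aug3.g27048, scaffold 190, 295716 to 493250 on the plus strand, Ptep_1.0), the CCR4-type exonuclease of the complex. It had 50.3 to 95.7 CPM (median 69.03) in the 8 late stage 5 libraries, against 375.3 to 771.2 CPM (median 464.4) in the 8 early stage 3 libraries. The ranges lie far apart and every female showed the fall. Its level was 7.01-fold lower at late stage 5, a log2 fold change of -2.81 (SE 0.10, adjusted p = 9.34e-12). The partner nuclease of the complex, the CAF1-type subunit 7-like model (aug3.g8341), had 29.9 to 59.1 CPM at late stage 5, against 17.7 to 56.6 CPM at early stage 3. These ranges overlap, yet it was higher in 8 of 8 females (log2 fold change 0.71, SE 0.15, adjusted p = 8.31e-04). By the deposited RPKM, which allow for gene length, the ratio of subunit 6 to subunit 7 was 0.47 to 1.19 at late stage 5, against 3.27 to 16.5 at early stage 3. Subunit 6 stood above subunit 7 in 1 of 8 females at late stage 5, against 8 of 8 at early stage 3.

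**Figure D2:**
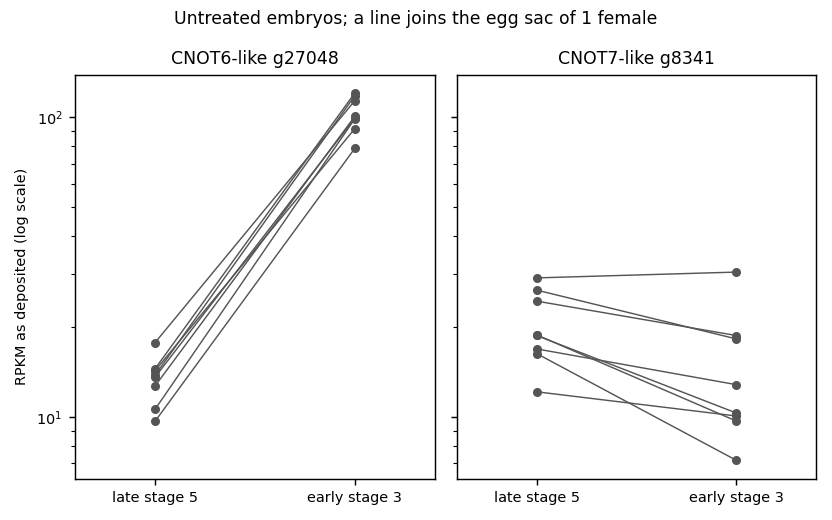
Deposited RPKM (log scale) of the CCR4-NOT subunit 6-like and subunit 7-like models in untreated embryos, with late stage 5 at the left and early stage 3 at the right and a line for each of the 8 females. Subunit 6 is lower at late stage 5 in every female, and its late stage 5 levels come close to those of subunit 7.

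The other CCR4-NOT subunits moved in both directions. CNOT2 (aug3.g27364), which binds CNOT3 in the module that contacts recruiting proteins, had 61.1 to 104.5 CPM (median 74.5) at late stage 5, against 14.01 to 30.3 CPM (median 18.8) at early stage 3. The groups do not overlap, and the rise was 3.89-fold (log2 fold change 1.96, SE 0.13, adjusted p = 7.06e-09). Of the 2 genes described as CNOT3-like, 1 fell (aug3.g26009, log2 fold change -0.78, SE 0.15, adjusted p = 2.41e-04) and the other, with the higher RPKM, was at -0.02 (aug3.g11182, 95% interval -0.27 to 0.23). CNOT10 (aug3.g13040), a subunit of the amino-terminal module, fell to 79.9 to 118.2 CPM at late stage 5, against 145.2 to 232.5 CPM at early stage 3 (log2 fold change -0.98, SE 0.10, adjusted p = 7.1e-07). CNOT11, its binding partner, is split over 2 models on different scaffolds. The well covered model (aug3.g17188) was not called (0.24, 95% interval -0.09 to 0.57), and the other (aug3.g22529), with at most 3.45 CPM in these libraries, was called higher (1.14, SE 0.35, adjusted p = 0.00879) but lost the call when any of 6 of the 8 females was left out (all but Pt-hh female 2 and Pt-ptc female 2). The scaffold subunit CNOT1 (aug3.g23958) had the highest RPKM of the complex over untreated libraries. It had 892.4 to 1372 CPM at late stage 5, against 934.5 to 1446 CPM at early stage 3, and the overlapping ranges gave no call (log2 fold change -0.24, SE 0.09, adjusted p = 0.0249). It was lower in 7 of 8 females, and RLE scaling (-0.33, adjusted p = 0.00648) and DESeq2 called it lower. The ubiquitin ligase subunit CNOT4 (aug3.g18261) was not called either (-0.31, 95% interval -0.65 to 0.04).

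The other deadenylases fell together. PAN2 (aug3.g26160), the nuclease of its complex, had 43.1 to 62.9 CPM (median 54.9) at late stage 5, against 89.7 to 193.2 CPM (median 133.3) at early stage 3. PAN3 (aug3.g3358), which tethers PAN2 to poly(A)-binding protein, had 49.3 to 67.7 CPM (median 61.9) at late stage 5, against 98.5 to 145.1 CPM (median 124.0) at early stage 3. In neither gene did the 2 stages overlap, and the log2 fold changes were -1.36 (SE 0.14, adjusted p = 6.81e-07) for PAN2 and -1.04 (SE 0.10, adjusted p = 2.65e-07) for PAN3. PARN, a poly(A)-specific ribonuclease of its own family, is split over 2 models whose spans overlap on the same strand. Reads in any exon stretch they share would be left unassigned by union counting, which was not examined. Its 2 models fell less, by 0.61 (aug3.g4375, SE 0.13, adjusted p = 8.19e-04) and by 0.44 (aug3.g4374, SE 0.13, adjusted p = 0.0064) on the log2 scale, and their stage ranges overlapped. The one with the higher RPKM over untreated libraries (aug3.g4374) had 42.2 to 91.7 CPM at late stage 5, against 41.4 to 144.6 CPM at early stage 3. It lost its call when gfp female 2, Pt-hh female 1, Pt-ptc female 1 or Pt-ptc female 3 was left out. The other (aug3.g4375) had 51.01 to 117.7 CPM at late stage 5, against 61.96 to 204.5 CPM at early stage 3.

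Among the translational repressors, CPEB1-B (aug3.g12413) and Smaug (aug3.g16338) fell. CPEB1 binds U-rich elements in 3' ends and is known from Xenopus oocytes to hold mRNAs with short tails silent. It had 44.6 to 91.1 CPM (median 57.8) at late stage 5, against 137.8 to 297.9 CPM (median 229.6) at early stage 3, without overlap (log2 fold change -1.84, SE 0.13, adjusted p = 1.02e-08). Smaug had 29.96 to 42.7 CPM (median 38.2) at late stage 5, against 67.7 to 103.4 CPM (median 82.9) at early stage 3, and again the stages did not overlap (-1.16, SE 0.11, adjusted p = 2.42e-07). The 2 models of CPEB2 type stayed low, with at most 20.3 CPM in these libraries, and neither was called (aug3.g17966 at -0.27, 95% interval -0.67 to 0.13, and aug3.g27584 at 0.05, 95% interval -0.45 to 0.55).

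The poly(A)-binding group held the largest rise of all members. The polyadenylate-binding protein 4-like model (aug3.g27712, scaffold 231, 529011 to 542325 on the plus strand), of the cytoplasmic proteins that coat the tail, had 4361 to 8138 CPM (median 5952) at late stage 5, against 371.3 to 732.4 CPM (median 579.6) at early stage 3. The rise was 10.9-fold (log2 fold change 3.45, SE 0.09, adjusted p = 1.41e-12) and was seen in 8 of 8 females. By mean RPKM it ranked 28th of 27990 models at late stage 5 (2021 ± 515.6, SD, n = 8), against 243rd at early stage 3 (208.7 ± 65.6). No other member came near this level. The next in the group at late stage 5 was PABP2-B (aug3.g5890), a protein of the nuclear type that acts in tail synthesis, at an RPKM of 192.2 ± 58.1 at late stage 5, against 82.1 ± 21.7 at early stage 3 (SD, n = 8 each).

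PABP2-B had 153.0 to 316.2 CPM (median 235.6) at late stage 5, against 56.02 to 109.5 CPM (median 91.7) at early stage 3 (aug3.g5890, log2 fold change 1.36, SE 0.10, adjusted p = 2.45e-08), and the stages did not overlap. A second 4-like gene (aug3.g27715) lies on the same scaffold and strand as the abundant one, from 599801 to 621122, and rose at a far lower level. It had 8.27 to 62.5 CPM (median 31.1) at late stage 5, against 1.29 to 10.4 CPM (median 7.00) at early stage 3 (log2 fold change 2.46, SE 0.18, adjusted p = 1.75e-08). The ranges overlap because the 3 Pt-ptc females, before any injection, had less of this RNA than the 5 other females at both stages: 8.27 to 13.9 CPM at late stage 5 and 1.29 to 1.88 CPM at early stage 3. Only uniquely placed reads were kept, so similar stretches of these neighbors may be undercounted. PAIP1 (aug3.g14110), a partner of poly(A)-binding protein that promotes translation, had 300.4 to 413.6 CPM at late stage 5, against 208.4 to 338.0 CPM at early stage 3 (0.52, SE 0.11, adjusted p = 6.8e-04). The model described as cytoplasmic and nuclear-like (aug3.g27360) had 58.5 to 151.5 CPM at late stage 5, against 97.7 to 135.6 CPM at early stage 3, and was not called (-0.23, 95% interval -0.63 to 0.18). The last 2 models of the group were near 0. The 1-B-like model (aug3.g15127) had at most 0.18 CPM at late stage 5, against at most 1.39 CPM at early stage 3, and was not called. The other (aug3.g21289) stayed under 10 reads in every library and was not tested.

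**Figure D3:**
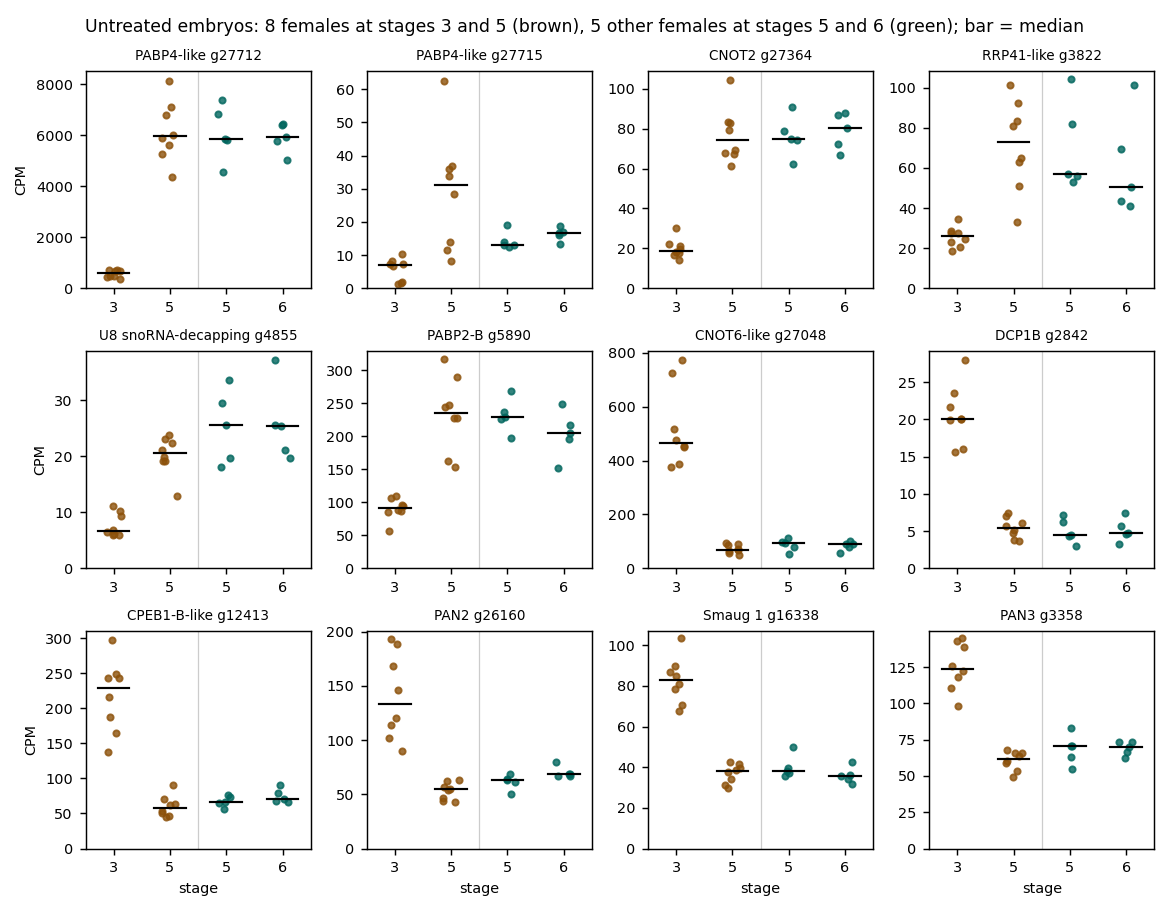
CPM of the 12 members with the largest called changes in untreated libraries, in the order of stages 3, 5, 5 and 6; brown points are the 8 females of the first set, green points the 5 females of the second set, and bars are medians. The 6 members that rose are first and the 6 that fell follow; the second set stays near the late stage 5 levels at early stage 6.

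The RNA exosome rose in most of its subunits. RRP41 (aug3.g3822), a subunit of the ring, had 33.03 to 101.4 CPM (median 72.9) at late stage 5, against 18.7 to 34.4 CPM (median 26.0) at early stage 3. It was higher in every female (log2 fold change 1.43, SE 0.14, adjusted p = 3.11e-07), and the ranges meet only at Pt-hh female 2 (33.03 CPM at late stage 5). The ring subunit RRP45 (aug3.g10362, 1.26, SE 0.13, adjusted p = 5.16e-07), the cap subunit CSL4 (aug3.g15214, 1.15, SE 0.20, adjusted p = 1.43e-04) and the ring subunit RRP46 (aug3.g14052, 0.87, SE 0.17, adjusted p = 3.2e-04) rose in 8 of 8 females. CSL4 had the highest RPKM of the group over untreated libraries, with 57.9 to 168.4 CPM at late stage 5, against 21.6 to 125.1 CPM at early stage 3. The 3 Pt-ptc females stood apart before injection, with 98.1 to 125.1 CPM at early stage 3 where the 5 others had 21.6 to 40.1 CPM. In Pt-ptc females alone the rise was 0.42 and not called (SE 0.16, adjusted p = 0.0347), beside 1.64 in gfp females (SE 0.22) and 1.46 in Pt-hh females (SE 0.30). This difference between females was not tested. RRP44 (aug3.g18644), the catalytic subunit, had 192.0 to 376.1 CPM at late stage 5, against 151.0 to 226.8 CPM at early stage 3 (0.65, SE 0.10, adjusted p = 3.59e-05). RRP40 of the cap (aug3.g11636) rose by 0.44 in 7 of 8 females (SE 0.11, adjusted p = 0.00288) and lost its call without Pt-ptc female 1. The 2 subunits that were not called were RRP4 of the cap (aug3.g6238, -0.28, 95% interval -0.58 to 0.02) and RRP42 of the ring (aug3.g6640, -0.24, 95% interval -0.55 to 0.08).

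At the other end of the mRNA, DCP1B (aug3.g2842), the activator of the decapping enzyme DCP2, fell to 3.70 to 7.43 CPM (median 5.40) at late stage 5, against 15.6 to 27.97 CPM (median 20.1) at early stage 3 (log2 fold change -1.93, SE 0.15, adjusted p = 4.05e-08). The stages did not overlap. EDC4 (aug3.g8493), the scaffold that joins decapping factors and the member of this role with the highest RPKM, was not called, at 547.6 to 688.3 CPM in late stage 5, against 538.1 to 909.3 CPM in early stage 3 (-0.13, 95% interval -0.34 to 0.08). EDC3 (aug3.g27699), another enhancer of decapping, had only 10.4 to 18.5 CPM at late stage 5, against 2.68 to 8.45 CPM at early stage 3, and rose (1.17, SE 0.22, adjusted p = 2.74e-04). The U8 snoRNA-decapping enzyme (aug3.g4855) had 12.9 to 23.9 CPM (median 20.6) at late stage 5, against 5.90 to 11.2 CPM (median 6.69) at early stage 3 (1.403, SE 0.15, adjusted p = 8.46e-07). Of the 2 models described as decapping and exoribonuclease protein, which in other animals removes faulty caps, 1 fell (aug3.g16815, -0.76, SE 0.17, adjusted p = 0.00113) and the other was not called (aug3.g8224, -0.03, 95% interval -0.37 to 0.31).

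XRN1 (aug3.g15712), the cytoplasmic 5'-3' exoribonuclease that degrades decapped mRNA, fell to 153.6 to 227.6 CPM at late stage 5, against 264.6 to 474.0 CPM at early stage 3 (log2 fold change -0.93, SE 0.09, adjusted p = 4.92e-07), without overlap. XRN2, its nuclear relative, is split over 2 neighboring models and was not called in either (aug3.g26113 at 0.00, 95% interval -0.24 to 0.24, and aug3.g26114 at 0.08, 95% interval -0.14 to 0.31). The better covered XRN2 model (aug3.g26114) had 199.1 to 296.1 CPM at late stage 5, against 170.6 to 405.8 CPM at early stage 3. In nonsense-mediated decay, the surveillance pathway for premature stop codons, the RENT1 helicase (aug3.g14952 at -0.24 and aug3.g9557 at -0.06) and RENT2 (aug3.g15001 at -0.23 and aug3.g15002 at -0.33), each split over 2 models, were not called. The 95% intervals of these 4 models lay between -0.66 and 0.23.

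A wider list of 73 models was taken by words in their descriptions that are linked to mRNA decay. It also holds models that matched by their words alone, and these are counted too. Among them are lethal(3)malignant brain tumor-like protein 1 (aug3.g20044, fell), U7 snRNA-associated LSm11 (aug3.g25645, fell) and mitochondrial poly(A) RNA polymerases (aug3.g24133 and aug3.g6410, rose). Of the 66 tested between the stages, 23 rose (34.8%) and 18 fell (27.3%), again near the background, with a median log2 fold change of 0.23. Those that rose included SMG1 (aug3.g12277, 3.30, SE 0.14, adjusted p = 5.14e-11), SMG9 (aug3.g26284, 1.75, SE 0.14, adjusted p = 6.41e-08) and SMG5 (aug3.g11107, 0.83, SE 0.11, adjusted p = 1.49e-05), which act with the RENT proteins. They also included LSm7 (aug3.g9323, 2.10, SE 0.15, adjusted p = 2.04e-08), a subunit of the ring that binds deadenylated mRNA ends in its cytoplasmic form. LSm2, LSm3, LSm4 and LSm6 were called higher too, at 0.762 to 1.565. LSm1 (aug3.g23583, -0.24, SE 0.14), LSm5 (aug3.g11380, 0.25, SE 0.15) and LSm8 (aug3.g16406, -0.415, SE 0.14) were not called, so the rise did not cover every LSm model. Those that fell included the nocturnin-like model (aug3.g26975, -3.87, SE 0.13, adjusted p = 7.92e-12), bicaudal C (aug3.g11292, -5.78, SE 0.32, adjusted p = 1.07e-09), which recruits CCR4-NOT in Drosophila, and both models of the decapping activator PAT1 (aug3.g26106 at -0.99, SE 0.13, adjusted p = 7.16e-06, and aug3.g26107 at -0.998, SE 0.14, adjusted p = 1.9e-05). The largest falls of the list were in an ELAV-like protein 3 model (aug3.g23888, -7.18, SE 0.17) and a Musashi homolog 2-like model (aug3.g910, -6.27, SE 0.57). No rule set beforehand chose which models of this list are named here, so they are examples and do not describe the list.

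From late stage 5 to early stage 6 no member passed the threshold. With edgeR's quasi-likelihood test 0 of 45 tested members were called in the 5 untreated females of the second set, where 2.25% of all models were, and DESeq2 and edgeR's likelihood ratio test also called 0. At an unadjusted p below 0.05 there were 4 members (8.89%, against 19.9% of all models). The log2 fold changes lay between -0.29 and 0.33, and for all 45 members the 95% interval lay within 2-fold in either direction. The abundant polyadenylate-binding protein 4-like model (aug3.g27712) had 5037 to 6452 CPM at early stage 6, against 4546 to 7376 CPM at late stage 5. CCR4-NOT subunit 6 (aug3.g27048) had 57.6 to 103.1 CPM at early stage 6, against 53.5 to 114.6 CPM at late stage 5. Both genes thus stood at early stage 6 within the range measured a stage before.

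Altered Hedgehog signaling moved no member past the threshold. After Pt-hh pRNAi, edgeR's quasi-likelihood test called 0 of 45 members at early stage 3 (0.34% of all models) and 0 of 45 at late stage 5 (3.55% of all models). At late stage 5 the same test gave log2 fold changes of -6.03 (SE 0.23, adjusted p = 1.3e-08) for the homeobox gene Pt-otd (aug3.g9172) and -4.00 (SE 0.24, adjusted p = 1.29e-06) for Pt-hh (aug3.g4322). The members lay between -0.49 and 0.45, and 43 of their 45 intervals lay within 2-fold. After Pt-ptc pRNAi, 0 of 46 members were called at early stage 3 (0.134% of all models) and 0 of 45 at late stage 5 (1.01%), and at late stage 5 all 45 intervals lay within 2-fold. Each pRNAi egg sac entered the pRNAi fits as a library of its own. Where a female gave several, they are repeats, so these SEs and intervals do not measure the spread between females alone. At an unadjusted p below 0.05 there were 7 members after Pt-hh pRNAi at early stage 3 (15.6%, against 15.1% of all models). At late stage 5 there were 4 (8.89%, against 18.3%). Pt-ptc pRNAi gave 6 at early stage 3 (13%, against 15.7%) and 2 at late stage 5 (4.44%, against 14.9%). DESeq2 and the likelihood ratio test called 0 members in each of these 4 comparisons.

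The control injections and the libraries labelled Pt-msx1 pRNAi gave no calls among the members. After gfp pRNAi 0 of 45 members were called at early stage 3 (1.26% of all models) and 0 of 45 at late stage 5 (0.137%). At an unadjusted p below 0.05 there were 6 members (13.3%, against 23.8% of all models) and 2 (4.44%, against 11.7%) in the same order. In gfp females 4 and 5, 0 of 45 were called at late stage 5 (0.231%) and 0 of 45 at early stage 6 (1.71%). Unadjusted, there were 3 (6.67%, against 9.05%) and 2 (4.44%, against 12.7%). In the libraries labelled Pt-msx1 pRNAi 0 of 45 were called at late stage 5 (0%) and 0 of 45 at early stage 6 (0%). Unadjusted, there were 0 (0%, against 5.59%) and 1 (2.22%, against 6.23%). The 2 fits of libraries labelled Pt-msx1 pRNAi called no model at all (0 of 12440 at late stage 5 and 0 of 12446 at early stage 6). Their count of 0 members therefore says nothing particular to the decay genes. The paper listed genes below the same threshold at stage 6 in its own comparison. Without Pt-msx1 female 1, whose stage 6 library equals a gfp library, 0 members were called at early stage 6 (the share of all models in that fit is not given here). For gfp females 4 and 5 leaving out female 5 would leave 1 library against 1, so no test without the identical library was made. DESeq2 and the likelihood ratio test each called 1 member after gfp pRNAi at early stage 3, PAIP1, and 0 in the other 5 comparisons.

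**Figure D4:**
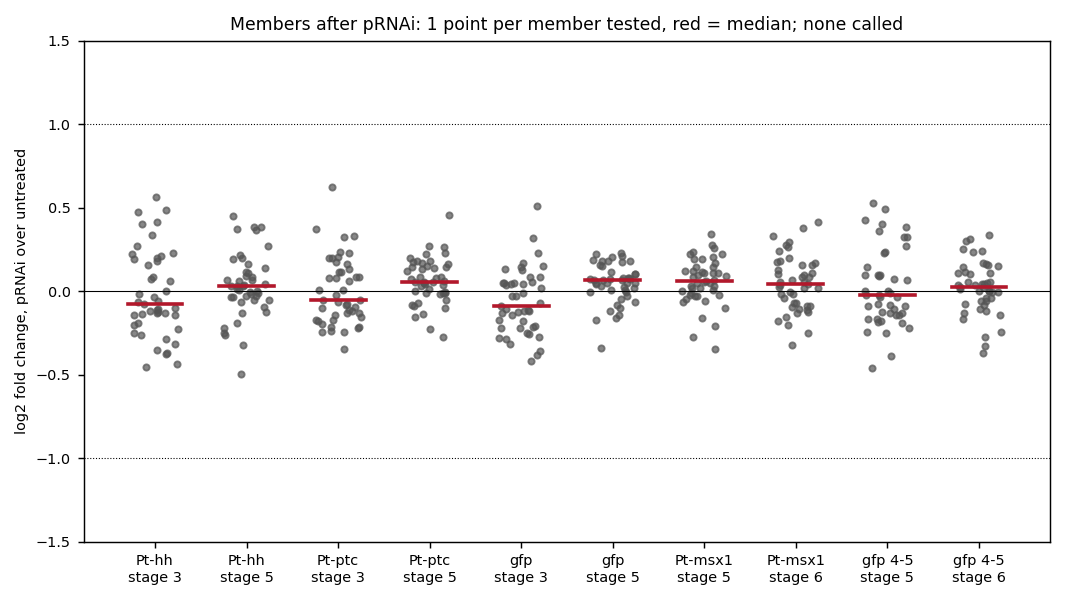
Log2 fold change of each tested member in pRNAi over untreated embryos in 10 comparisons (1 point per member, red bars are medians, dotted lines mark a 2-fold change). No member was called, and all points lie between -0.49 and 0.63.

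PAIP1 (aug3.g14110) came closest to a call after injection. In gfp females it had 297.2 to 378.0 CPM in the 6 pRNAi libraries at early stage 3, against 222.5, 236.9 and 258.0 CPM in the 3 untreated ones. These groups do not overlap, but the edgeR quasi-likelihood test left it above the threshold (log2 fold change 0.51, SE 0.12, adjusted p = 0.0229). In Pt-hh females it had 278.4, 279.4, 341.6 and 376.1 CPM in pRNAi libraries at early stage 3, against 208.4 and 216.2 CPM in untreated ones (0.57, SE 0.13, adjusted p = 0.052), and in Pt-ptc females the log2 fold change was 0.23 (SE 0.09, adjusted p = 0.234). At late stage 5 the 3 values were 0.07 in gfp, -0.13 in Pt-hh and 0.04 in Pt-ptc females. The difference between the stages was tested for Pt-hh (-0.67, SE 0.20, adjusted p = 0.0674) and Pt-ptc (-0.18, SE 0.13, adjusted p = 0.627) and was called for neither. The same test of a stage difference called 0 of 45 members for Pt-hh (1.37% of all models) and 0 of 46 for Pt-ptc (0.452%). At an unadjusted p below 0.05 there were 5 (11.1%, against 16.2% of all models) and 6 (13%, against 11.9%). DESeq2 and the likelihood ratio test also called 0.

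RRP45 (aug3.g10362) gave a result that turned on 1 female. At early stage 3 it had 53.9 and 48.02 CPM in the pRNAi libraries of Pt-hh female 2, against 23.3 CPM in the untreated library. Female 1 had 27.3 and 30.98 CPM in the pRNAi libraries, against 36.03 CPM in the untreated one. The females moved in opposite directions and the gene was not called (log2 fold change 0.34, SE 0.25, adjusted p = 0.565). Without female 1 the value was 1.08, from 2 pRNAi libraries and 1 untreated library of a single female, so this is no replicated test. In the wider list, 2 of 59 models rose after Pt-hh pRNAi at late stage 5 (3.39%, beside 3.55% of all models). They were ZFP36L1 (aug3.g3346, 1.78, SE 0.27, adjusted p = 0.00133), which brings CCR4-NOT to AU-rich mRNAs in mammals, and DIS3-like exonuclease 2 (aug3.g1084, 0.95, SE 0.15, adjusted p = 0.00165). Another ZFP36L1-like model (aug3.g13259) fell at early stage 3 after Pt-hh pRNAi (-2.855, SE 0.45, adjusted p = 0.00623) and after gfp pRNAi (-1.657, SE 0.21, adjusted p = 0.0013). It was the 1 of 63 called there after Pt-hh pRNAi (1.59%, beside 0.34%). After gfp pRNAi 2 of 64 were called (3.12%, beside 1.26%), the other being BTG2 (aug3.g17455, -0.94, SE 0.18, adjusted p = 0.00758). The test of a stage difference of the Pt-hh response called 3 of 63 in the wider list (4.76%, beside 1.37% of all models). They were aug3.g3346 (2.38, SE 0.35), aug3.g13259 (2.64, SE 0.475) and aug3.g1084 (1.07, SE 0.205), each with the higher response at late stage 5.

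The stage change was measured again in embryos from injected females, in a comparison chosen after the data were seen. Late stage 5 was set over early stage 3 among the pRNAi egg sacs of the first set, with each egg sac as a block. The egg sacs share mothers (4 from 2 Pt-hh females, 6 from 3 Pt-ptc females and 6 from 3 gfp females), so the SEs and calls measure the spread between egg sacs and not between females. All 28 members called in untreated embryos had the same direction in the Pt-hh, the Pt-ptc and the gfp egg sacs, and 23, 24 and 24 of them were called there. The 28 were chosen for their calls in untreated egg sacs of the same mothers. How often other called models kept their direction or call is not given here, so this is no trait particular to the decay genes. The members called were 13 higher and 11 lower in Pt-hh egg sacs (28.9% and 30.1% of all models), 15 and 14 in Pt-ptc egg sacs (35% and 37.2%), and 16 and 11 in gfp egg sacs (32.9% and 36.7%). The polyadenylate-binding protein 4-like model (aug3.g27712) rose by 3.44 (SE 0.14), 3.51 (SE 0.15) and 3.40 (SE 0.10) on the log2 scale in the Pt-hh, Pt-ptc and gfp egg sacs. CCR4-NOT subunit 6 (aug3.g27048) fell by 2.86 (SE 0.12), 2.62 (SE 0.08) and 2.49 (SE 0.12) in the same order. PAIP1 (aug3.g14110) was not called in any of the 3, at 0.07 (SE 0.12), 0.13 (SE 0.08) and 0.04 (SE 0.08). Both models of XRN2 were called higher in Pt-ptc egg sacs (aug3.g26113 at 0.40, adjusted p = 0.0015, and aug3.g26114 at 0.58, adjusted p = 5.73e-05) and in gfp egg sacs (0.50, adjusted p = 0.00102, and 0.53, adjusted p = 1.8e-04). They were not called in untreated egg sacs, and this difference from untreated egg sacs was called for neither model with Pt-ptc (adjusted p = 0.738 and 0.426) and was not tested with gfp. Further members were called there and not in untreated egg sacs. CNOT11 (aug3.g17188) was called higher in Pt-hh (0.68, SE 0.15) and gfp egg sacs (0.54, SE 0.16). In Pt-ptc egg sacs CPEB2 (aug3.g17966, -0.80, SE 0.15), the cytoplasmic and nuclear-like poly(A)-binding model (aug3.g27360, -0.83, SE 0.09) and the barely detected 1-B-like model (aug3.g15127) were called lower. In pooled whole embryos, fewer cells of a type and less RNA per cell cannot be told apart, and in poly(A) RNA a change in tail length and a change in the amount of an mRNA cannot either.

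**Figure D5:**
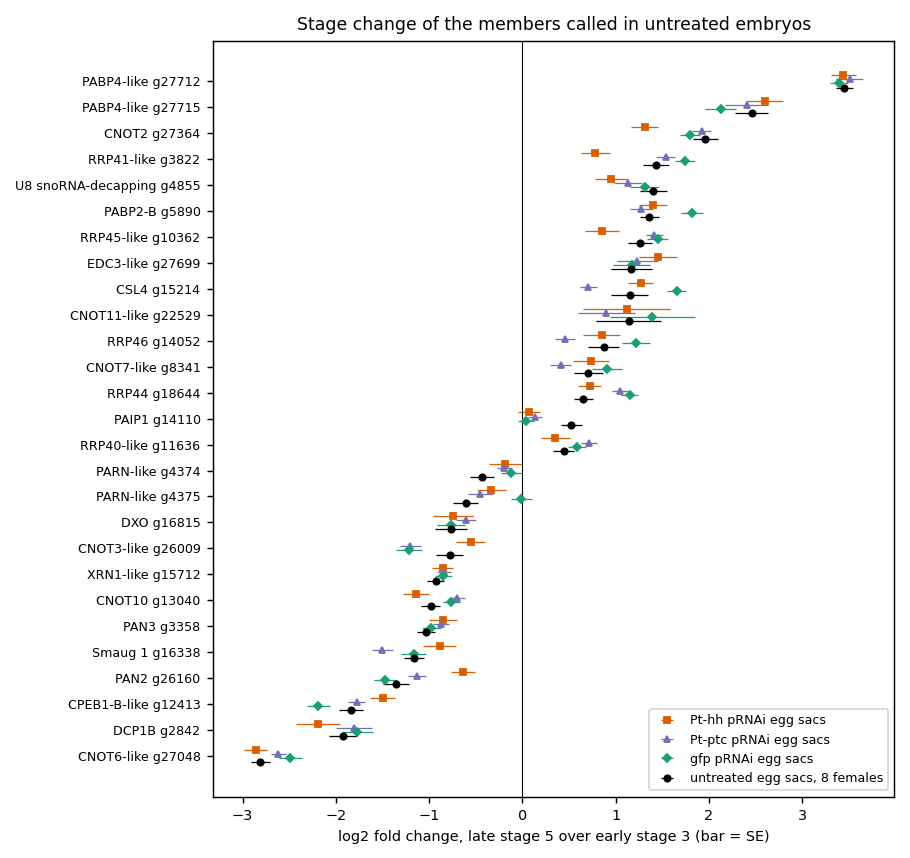
Log2 fold change (late stage 5 over early stage 3, bars are SE) of 27 of the 28 members called in untreated embryos, in Pt-hh, Pt-ptc and gfp pRNAi egg sacs (colored) and in untreated egg sacs of the same 8 females (black). The 4 points of a member lie on the same side of 0; those of PAIP1 and of the 2 PARN models come closest to 0.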

How the data were processed

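Reads, trimmed by the authors in CLC software, were placed on the Ptep_1.0 assembly by BLAT. Alignments with a unique place were assigned to aug3 models, strand by strand, with htseq-count 0.5.4p5 in union mode. They deposited whole-number counts without normalization and RPKM values, which were used only to compare levels between genes. Columns with the authors' own fold changes and adjusted p-values were not used, and the 7 late stage 7 samples were not analysed here. Tests were run on the deposited counts with edgeR 4.0.16 in R 4.3.3 (TMM, quasi-likelihood F test, adjusted over every model that reached 1 CPM in any library), with DESeq2 1.42.0 as an alternative. Standard errors came from the F statistic. The female was the block because untreated and pRNAi egg sacs share a mother; deviations of a female's libraries correlated at 0.27 to 0.76 across models. Values were given for the 6 members with the largest called rise and fall in every female and for the member with the highest RPKM in each role, and the same rule for calls at early stage 6 and after pRNAi found none. Levels of further members, among them PAIP1, RRP45 and CNOT7, were added after their values were seen. No rule set beforehand chose the models named from the wider list for their stage change. Some genes are not reported here. Members and lists were chosen with earlier results of these data known. Replicates are females: 5 or 8 in the untreated stage comparisons, and 2 or 3 in each pRNAi comparison and in each stage fit of 1 injection group, where pRNAi egg sacs of a female are repeats. The fits were tested on simulated data.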

Additional observations from a re-analysis of the deposited data

Results flagged for a closer look

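Among 68 pairs of a named member and an untreated group, 7 held 1 library far from the rest, where chance alone would flag about 1 in 20. In the first set all 3 such libraries were of Pt-hh females, whose libraries stand apart in composition. The U8 snoRNA-decapping enzyme (aug3.g4855) had 12.9 CPM in Pt-hh female 1 at late stage 5, with the others at 19.1 to 23.9 CPM. PABP2-B (aug3.g5890) had 56.02 CPM in Pt-hh female 2 at early stage 3, with the others at 85.2 to 109.5 CPM. XRN2 (aug3.g26114) had 405.8 CPM in Pt-hh female 1 at early stage 3, with the others at 170.6 to 229.8 CPM. In the second set, 2 of the 4 were of Pt-msx1 female 1. At late stage 5 her library had 588.5 CPM of CNOT1 (aug3.g23958), with the others at 1005 to 1133 CPM, and 18.9 CPM of the second 4-like poly(A)-binding gene (aug3.g27715), with the others at 12.5 to 13.9 CPM. PAN2 (aug3.g26160) had 80.1 CPM in Pt-msx1 female 2 at early stage 6, with the others at 66.6 to 69.2 CPM. Smaug (aug3.g16338) had 50.0 CPM in gfp female 4 at late stage 5, with the others at 35.9 to 39.6 CPM. What set these libraries apart was not tested.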

How the results depend on the processing

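The stage counts of 15 higher and 13 lower were 13 to 15 and 12 to 13 with 1 female left out. Without the female as a block they were 13 higher and 11 lower, and CSL4, CNOT7 and both PARN models lost their call. The shares of all models called in these fits are not given here. In the 2 Pt-hh females alone the stage counts fell to 7 higher and 8 lower, where 18% and 20.8% of all models were called. In the 3 Pt-ptc females alone they were 9 and 13 (27.7% and 28.4% of all models). Fewer libraries entered both fits. RLE scaling, which moved the median of all models by -0.08, gave 13 and 14 (30.4% and 35.5% of all models). It added CNOT1 as lower, and DESeq2 added CNOT1 and a RENT2 model (aug3.g15001) as lower. Over 240 recomputed fold changes of the 12 members with the largest changes, none changed direction and 2 lost their call, RRP41 and the U8 snoRNA-decapping enzyme in the Pt-hh females alone (adjusted p = 0.0296 and 0.0117). These 12 were chosen for a called change of the same direction in every female. All but 36 of the 240 reuse the same untreated libraries, so kept directions there follow from the choice. Of 125 recomputed counts for pRNAi and early stage 6, 119 were 0 and 6 were 1. The 6 were PAIP1 after Pt-hh pRNAi at early stage 3 without a low-count filter and after gfp pRNAi at early stage 3 with DESeq2 and with the likelihood ratio test, and RRP45 after Pt-ptc pRNAi at late stage 5 without a low-count filter and, without Pt-hh female 1, after Pt-hh pRNAi at early stage 3 and in the stage difference of that response, where 1 female is left and the p has no replicate females behind it. With 1 female left out, these counts were 0 to 1 for Pt-hh and 0 elsewhere. Dropping the block changed no pRNAi count from 0. Models under about 10 CPM, and the 5 genes split over 2 models, are measured least well.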

Other observations

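The second polyadenylate-binding protein 4-like gene (aug3.g27715) varied between females. In untreated late stage 5 embryos it had 28.5 to 62.5 CPM in the gfp females of the first set, 35.9 and 36.96 CPM in the Pt-hh females and 8.27 to 13.9 CPM in the Pt-ptc females, and the 5 females of the second set had 12.5 to 18.9 CPM. These females were untreated at that time and were later injected with different dsRNAs. The differences between them were not tested.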
